A study of Mus musculus with 80 samples.

Results

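The genes followed here are 6 members of the SLAM family of immune cell surface receptors, namely Slamf1, Cd48, Ly9, Cd84, Slamf6 and Slamf7. They were taken by mouse symbol, and each had a single row in both deposited gene tables, which held 41388 and 40481 mouse genes. RNA of mouse hematopoietic stem cells (HSC), which can rebuild all blood lineages, and of hematopoietic progenitor cells (HPC), which are further along toward mature blood, was sequenced in 80 libraries of 20 groups, all on the B6 strain. HSC of the age series were labelled E14.5 (3 libraries), E16.5 (4), E18.5 (3), P0 (4), P7 (4), P14 (4) and 8 weeks (4), and HPC E16.5 (3), P0 (4), P7 (4), P14 (5) and 8 weeks (4). The embryonic ages are written E14, E16 and E18 below, and 8 weeks is written Adult. No genotype is labelled for the age series. In a second series, P0 cells were Ifnar ko (genotype Ifnar -/-; 4 HSC and 4 HPC libraries) or wild type (5 HSC and 4 HPC libraries), where Ifnar is the receptor of type I interferon. In the same series, P14 HPC were Ifnar -/-, Flt3 ITD/+ (5 libraries), Ifnar -/-, Flt3 +/+ (4), Ifnar +/-, Flt3 ITD/+ (4) or Ifnar +/-, Flt3 +/+ (4). Flt3 ITD is an internal tandem duplication in a growth factor receptor, an activating allele found in leukemia. At P14 the Ifnar -/- groups were therefore set against Ifnar +/- heterozygotes and not against wild type. The organ, the sort gate and whether libraries of a group came from separate animals are not in the labels, so the p-values measure the spread between libraries, which may be technical.

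SLAM receptors are immunoglobulin-superfamily proteins of hematopoietic cells, and most of them bind the same protein on a neighbouring cell. Their cytoplasmic tails carry tyrosine switch motifs that bind the small adapters SAP (Sh2d1a) and EAT-2 (Sh2d1b1), which link them to kinases such as Fyn. CD48 differs in having no cytoplasmic tail: it is held in the membrane by a lipid anchor and is the ligand of CD244 and of CD2. In mouse blood cell biology, presence of CD150, the product of Slamf1, and absence of CD48 on the cell surface are the classical marks of HSC, and progenitors are largely CD48+. These 2 proteins are commonly used to sort the cells, so the RNA of Slamf1 and Cd48 in HSC against HPC is given below as a description with no test. A gate on them could also touch their levels in every other group, and its part was not tested.

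All 6 genes lie close together on chromosome 1. Their Ensembl identifiers in the tables are ENSMUSG00000015316 (Slamf1), ENSMUSG00000015355 (Cd48), ENSMUSG00000004707 (Ly9), ENSMUSG00000038147 (Cd84), ENSMUSG00000015314 (Slamf6) and ENSMUSG00000038179 (Slamf7). In the GENCODE M21 annotation the order of protein-coding genes there is Cd244a, Ly9, Slamf7, Cd48, Slamf1, Cd84, Gm10521, Slamf6 and Vangl2, with Ly9 and Slamf7 on the minus strand and the other members on the plus strand. Cd48 and Slamf1 are next to each other. The stretch just before the start of each is shown because these neighbours, on the same strand, had opposite levels in the 2 cell types. Both come from RefSeq on GRCm38.p6, read 5′ to 3′ on the plus strand, and capitals mark a match to a motif searched on both strands. The Cd48 window is chr1:171681742-171681991 (250 bases) and the Slamf1 window is chr1:171766882-171767126 (245 bases, without bases of its own first exon).
Cd48: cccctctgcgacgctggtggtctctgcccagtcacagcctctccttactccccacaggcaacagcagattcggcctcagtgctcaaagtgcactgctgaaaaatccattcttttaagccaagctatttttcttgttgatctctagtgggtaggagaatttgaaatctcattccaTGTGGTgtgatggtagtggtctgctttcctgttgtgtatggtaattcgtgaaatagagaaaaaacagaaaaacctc
Slamf1: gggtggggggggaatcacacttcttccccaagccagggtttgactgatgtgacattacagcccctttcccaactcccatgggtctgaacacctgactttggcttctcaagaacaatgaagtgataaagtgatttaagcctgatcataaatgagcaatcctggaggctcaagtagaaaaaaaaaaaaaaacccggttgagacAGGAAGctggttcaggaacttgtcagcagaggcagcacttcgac
The capitals in the Cd48 window are the RUNX motif TGTGGT, 76 to 71 bases before the RefSeq start. Those in the Slamf1 window are the ETS motif AGGAAG, 49 to 44 bases before the RefSeq start. The Slamf1 sequence shown ends 5 bases short of that start, where its first exon in GENCODE M21 begins. RUNX and ETS proteins are transcription factors of blood cells. Such matches are common: 14% of the 32851 mouse promoter windows of 250 bases held TGTGGT and 29.5% held AGGAAG. The Cd84 window also held TGTGGT, the Slamf7 window held AGGAAG, and the Slamf6 window held neither. Neither the interferon-stimulated response element, GAAA repeated after any 2 bases (in 2.98% of all windows), nor the STAT motif TTCNNNGAA (7.02%), nor the GATA motif AGATAA (9.99%) was found in the 5 windows examined, and Ly9 was not examined. In GENCODE M21, 239 of the Cd48 bases are also covered by exons of A630035G10Rik, a noncoding gene on the opposite strand that has no row in the tables.

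Library depth in the age series was 6.95 to 24.03 M (mega) reads for HSC and 7.91 to 25.38 M reads for HPC. In the genotype series it was 37.04 to 46.3 M reads for P0 HSC, 11.68 to 14.72 M reads for P0 HPC and 58.4 to 92.1 M reads for P14 HPC. Levels are RPKM, reads per kilobase of exon per M reads of the library, and can be compared between genes. A gene is called at an adjusted p below 0.05 over all genes tested, with limma where HSC of the age series enter and with edgeR otherwise. The labels' cell types were checked on a list of 10 HSC marker genes, among them Procr, Mecom and Hlf. Their summed level was 579 to 998 RPKM over HSC libraries of the age series and 222 to 414 RPKM over its HPC libraries, with no overlap. In bulk RNA, fewer cells that carry a transcript and less of it per cell cannot be told apart. Title codes also differ between ages and cell types: each HPC age has its own code prefix, so age and prefix cannot be told apart there, and E14, E16 and E18 HSC share one prefix, P7 and P14 HSC another, and P0 and Adult HSC another still.

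**Figure D1:**
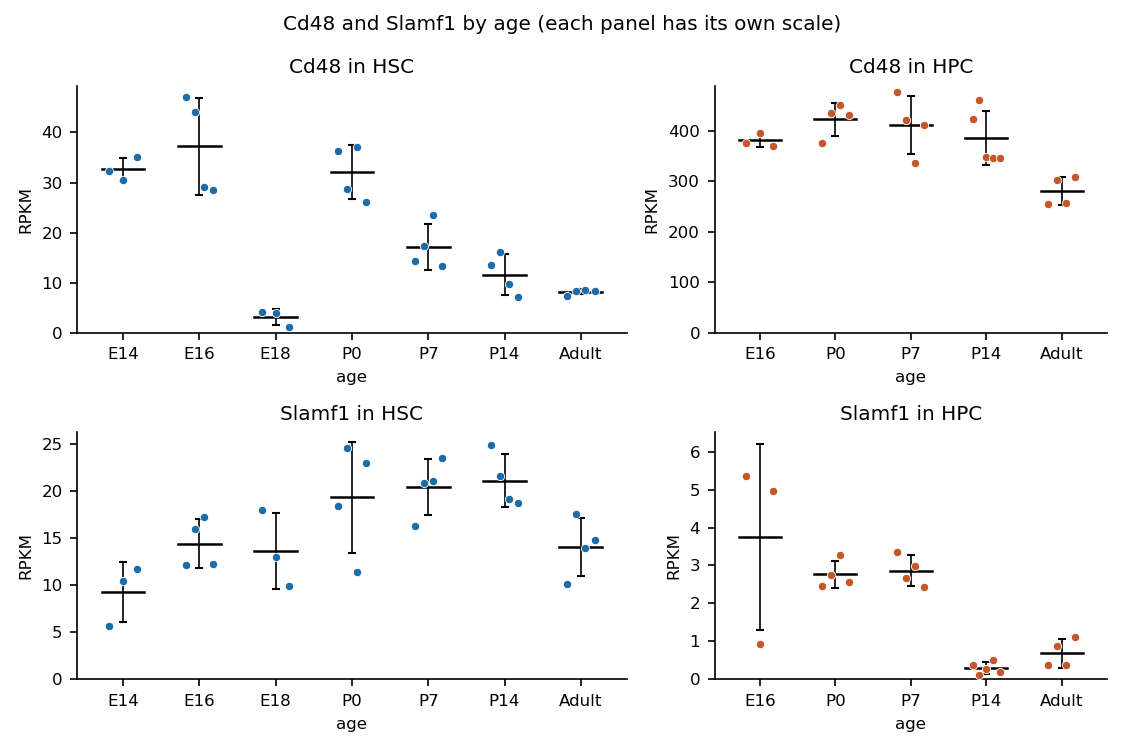
Cd48 and Slamf1 level (RPKM) in every library of the age series, HSC left of HPC, ages from low to high within each; points are libraries, the black line is the mean and the bar the SD, and each panel has its own scale. Cd48 of HSC stays at or below 47 RPKM and is lowest at E18, and Slamf1 of HPC stays at or below 5.36 RPKM.

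Cd48 was far lower in HSC than in HPC and Slamf1 higher, at all 5 ages measured in both cell types. At E16, Cd48 had 47, 44, 29.2 and 28.6 RPKM in HSC, against 377, 397 and 371 RPKM in HPC. In Adult cells it had 7.4, 8.35, 8.44 and 8.38 RPKM in HSC, against 256, 302, 257 and 308 RPKM in HPC. The highest HSC library of any age had 47 RPKM of Cd48 and the lowest HPC library 256 RPKM. Set the other way up, the mean in HPC was 10.3 times that in HSC at E16, 13.2 times at P0, 24.1 times at P7, 33.3 times at P14 and 34.5 times in Adult cells. Mean Cd48 at these ages was 37.2, 32, 17.1, 11.6 and 8.14 RPKM in HSC and 382, 423, 412, 386 and 281 RPKM in HPC.

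For Slamf1, the receptor also known as CD150, mean levels at E16, P0, P7, P14 and Adult were 14.4, 19.4, 20.5, 21.1 and 14.1 RPKM in HSC, and 3.75, 2.76, 2.86, 0.286 and 0.677 RPKM in HPC. The means in HSC were 3.84, 7, 7.15, 73.7 and 20.8 times those in HPC at these ages. The 2 last ratios rest on few HPC reads, 9 to 41 per library at P14 and 22 to 74 in Adult HPC. Taken within each library, the ratio of Cd48 to Slamf1 RPKM had group medians from 0.228 (E18) to 3 (E14) in HSC and from 74.6 (E16) to 1350 (P14) in HPC. This ratio is free of library scaling, and HSC did not overlap HPC in it at any age.

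**Figure D2:**
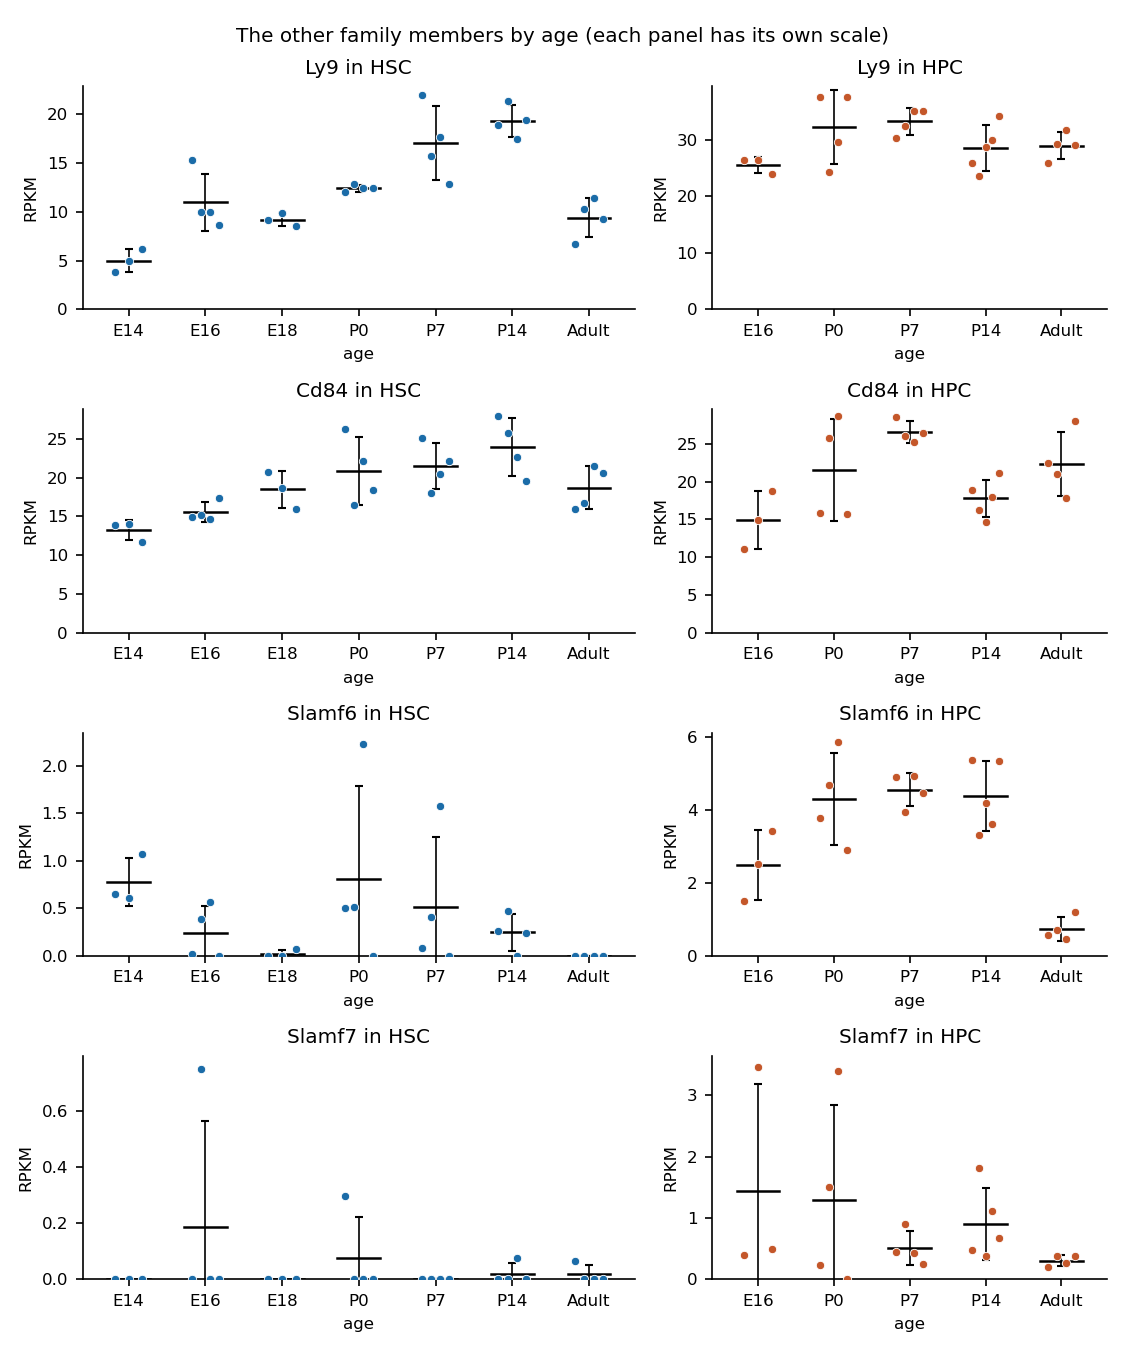
Level (RPKM) of Ly9, Cd84, Slamf6 and Slamf7 in every library of the age series, HSC left of HPC, with ages from low to high; points are libraries, the black line is the mean and the bar the SD, and each panel has its own scale. Ly9, Slamf6 and Slamf7 means are lower in HSC at all 5 shared ages, and the Cd84 points overlap between the cell types at all of these but P7.

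The other 4 members, which were tested between the cell types, fell into an HPC-enriched group and a shared one. Ly9, a homophilic receptor also called CD229, was lower in HSC at all 5 ages. Its means in HSC were 11, 12.4, 17.1, 19.3 and 9.4 RPKM from E16 to Adult, against 25.5, 32.2, 33.2, 28.5 and 28.9 RPKM in HPC. The log2 differences, HSC over HPC on the log2(RPKM + 0.5) scale used throughout with limma, were -1.28, -1.4, -1.01, -0.75 and -1.56. Limma adjusted p ran from 2.05e-10 to 0.000119, and at no age did Ly9 libraries of the 2 cell types overlap. Of the 4 members, 3 were called at E16, 3 at P0, 2 at P7, 3 at P14 and 2 in Adult cells, all lower in HSC. Of all genes, 23.1%, 38.6%, 41.2%, 37.1% and 28.5% were called at these ages in either direction, and 10.5%, 18.2%, 21.2%, 19.4% and 15.4% were called lower in HSC.

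Slamf6, also called Ly108, is a SAP-binding receptor known from T, B and NK cells. It was lower in HSC at all 5 ages, with log2 differences of -2.08, -2.16, -2.58, -2.88 and -1.24 (limma adjusted p from 1.21e-09 to 0.00477). Its means in HSC were 0.245, 0.815, 0.52, 0.246 and 0 RPKM from E16 to Adult, against 2.49, 4.31, 4.56, 4.38 and 0.741 RPKM in HPC. In Adult HSC it had no read in any of the 4 libraries. A floor of 3 reads over that group allows 0.016 RPKM, so Slamf6 was at least 46.2-fold higher in Adult HPC. With only the Adult groups fitted it was below the filter and not tested. Such floors cover counting error only.

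Slamf7, also called CRACC, binds EAT-2 rather than SAP and is known from NK and plasma cells. It was close to the detection limit in HSC, with no read at E14, E18 and P7, which allows 0.054, 0.072 and 0.0514 RPKM. At E16 it was called lower in HSC (0, 0.752, 0 and 0 RPKM, against 0.389, 3.46 and 0.485 RPKM in HPC; -1.31, limma adjusted p = 0.0296). The E16 call rests on single libraries: without HPC replicate 2 the difference was -0.59 (limma adjusted p = 0.424), and leaving out HSC replicate 1, 3 or 4 also ended it, with adjusted p from 0.0724 to 0.075. At P0 Slamf7 was called lower in HSC too (0.297, 0, 0 and 0 RPKM, against 0.229, 1.51, 3.4 and 0 RPKM in HPC; -1.23, limma adjusted p = 0.017). With no filter on low values the E16 call was lost too (-1.31, adjusted p = 0.0515), and so it was with edgeR on the recovered reads (-3.01, adjusted p = 0.091). The P0 call was lost without HPC replicate 2 (adjusted p = 0.0754) or HPC replicate 3 (-0.7, adjusted p = 0.18). At P14 HSC had 0, 0, 0.0745 and 0 RPKM, against 0.48, 1.82, 0.38, 1.12 and 0.676 RPKM in HPC, with no overlap and a difference of -1.44 (limma adjusted p = 0.00322). At P7 (-0.98, adjusted p = 0.0559) and in Adult cells (-0.62, adjusted p = 0.282) limma made no call, although HPC at P7 were at least 9.79-fold above the limit set by the HSC reads. The P7 difference was called with a replicate block (-0.98, limma adjusted p = 0.0466), a pseudocount of 0.1 (-2.51, limma adjusted p = 0.00622) and edgeR on the recovered reads (-6.25, adjusted p = 0.00875). In GENCODE M21, Slamf7 has 4577 exon bases and shares 423 of them with Gm37787 on the opposite strand, which has no deposited values. The exon length behind the Slamf7 values was 1082 bases, so whether the shared bases were counted is not known. Whether the counting used strand is not given in the sources used here.

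Cd84, a self-binding receptor of many myeloid and lymphoid cells, was the member that limma called between the cell types at none of the 5 ages. From E16 to Adult its means were 15.5, 20.8, 21.5, 24 and 18.7 RPKM in HSC and 14.9, 21.5, 26.6, 17.7 and 22.3 RPKM in HPC. The log2 differences ran from -0.36 at P7 (limma adjusted p = 0.0852) to 0.22 at P14 (adjusted p = 0.306), with 1 of 5 ages, P7, at an unadjusted p below 0.05. At P7 the HSC libraries, at 18 to 25.1 RPKM, lay just under the HPC libraries, at 25.2 to 28.6 RPKM, and at the other ages the libraries overlapped. A missing call does not show that the levels are equal. Without TMM scaling Cd84 was called higher in HSC at P14 (0.42, limma adjusted p = 0.0362), and with only the P7 groups fitted it was called lower in HSC at P7 (-0.37, adjusted p = 0.0211).

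Wild type P0 cells of the genotype series gave another comparison of HSC with HPC, in separate libraries and with other code prefixes for each cell type. There, edgeR called all 4 tested members, against 56.2% of all genes: Ly9 lower in HSC by a log2 fold change of -0.73 (adjusted p = 0.00172), Slamf6 by -2.93 (adjusted p = 8.97e-06) and Slamf7 by -6.81 (adjusted p = 2.57e-06). Slamf7 had 2, 0, 1, 0 and 2 reads in the HSC libraries, so its fitted fold depends on the prior count. Cd84 was higher in HSC (22.1, 23.1, 22.8, 17.9 and 19.6 RPKM, against 11.5, 16.4, 15.3 and 16 RPKM in HPC; 0.53, edgeR adjusted p = 0.00137), without overlap, while in the age series the P0 libraries overlapped. Cd48 in HSC also differed between the series: 5.64, 4.9, 5.81, 5.63 and 6.91 RPKM in wild type P0 HSC of the genotype series, and 36.2, 28.8, 37.1 and 26.1 RPKM in P0 HSC of the age series. The values come from separate tables and were not tested against each other. Slamf1 in P0 HSC averaged 18.2 ± 4.1 RPKM (SD, n = 5) in the genotype series and 19.4 ± 5.93 RPKM (SD, n = 4) in the age series.

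In HSC over age, Cd48 had the largest called differences of any member, and its course was not steady. It had 32.3, 30.6 and 35.1 RPKM at E14 and 28.6 to 47 RPKM at E16. It had 4.12, 4 and 1.19 RPKM at E18, from 65, 36 and 25 reads, and 26.1 to 37.1 RPKM at P0. Every E18 library thus lay below every library of the ages on either side. Cd48 was lower at E18 than at E16 by a log2 difference of -3.52 ± 0.28 (SE; limma adjusted p = 5.84e-09), within 1 code prefix, and higher at P0 than at E18 by 3.31 ± 0.28 (limma adjusted p = 3.77e-08), across prefixes. It was the single member called of 5 tested in each step, against 5.43% and 4.75% of all genes. Both calls held without any single library. The P0 libraries here are those of the age series only. Wild type P0 HSC of the genotype series had 4.9 to 6.91 RPKM of Cd48, well below them. These were not tested against E18.

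Other genes moved in the same E18 libraries. Of 12 interferon response genes, 11 were called higher at E18 than at E16, and their summed level was 722 to 1260 RPKM at E18, 150 to 195 RPKM at E16 and 439 to 747 RPKM at P0. Of 10 HSC markers limma called none between E18 and E16, with 3 at an unadjusted p below 0.05, and their sum was 808 to 843 RPKM at E18 and 655 to 712 RPKM at E16. Of the lymphoid priming genes 4 were tested and limma called none (0 at an unadjusted p below 0.05), with sums of 145 to 159 RPKM at E18 and 138 to 190 RPKM at E16. T and NK cell markers were called lower at E18 in 1 of 2 tested, with a list sum of 10.7 to 14.3 RPKM at E18 and 13.8 to 31 RPKM at E16, and 1 of 2 was called higher at P0 than at E18 (27.3 to 47 RPKM at P0). In that list Cd3e, Cd3d, Cd8a, Ncr1 and Gzma were at 0 in HSC of E16 and E18. Macrophage markers were called higher at E18 than at E16 in 1 of 8 (74.6 to 82.7 RPKM, against 43.9 to 67.3 RPKM) and dendritic cell markers in 1 of 3 tested (191 to 230 RPKM, against 115 to 152 RPKM). The part of these lists in the Cd48 change was not tested.

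After birth Cd48 in HSC was lower again, with means of 32 ± 5.45 RPKM at P0, 17.1 ± 4.61 RPKM at P7, 11.6 ± 4.04 RPKM at P14 and 8.14 ± 0.496 RPKM in Adult HSC (SD, n = 4 each). The log2 difference of Adult HSC from P0 HSC, which share a code prefix, was -1.87 ± 0.26 (SE; limma adjusted p = 5.63e-06). Against E16 HSC, with another prefix, it was -2.09 ± 0.26 (adjusted p = 7.23e-07). Groups did not overlap in either comparison. Cd48 was the single member called in each, against 21% and 24.5% of all genes. The fall from P0 rests on the 4 P0 libraries of the age series. Wild type P0 HSC of the genotype series averaged 5.78 ± 0.723 RPKM (SD, n = 5), below the Adult mean. The step between P7 and P0 was called narrowly (-0.88 ± 0.26, limma adjusted p = 0.0443; 5.94% of all genes), and it was lost without any of 6 of the 8 libraries, P7 replicates 1, 2 and 4 and P0 replicates 1, 2 and 3, with adjusted p from 0.0609 to 0.12. Between P14 and P7, limma called none of 5 members, with 1 at an unadjusted p below 0.05, and edgeR on the recovered reads called 0 (1.71% of all genes with limma). Other lists moved between Adult and E16 HSC. Interferon response genes were called higher in 8 of 12, macrophage markers in 5 of 8 (1 lower) and megakaryocyte markers in 4 of 6 tested. HSC markers were called lower in 5 of 10 and higher in 1. Their summed level was 616 to 945 RPKM in Adult HSC and 655 to 712 RPKM in E16 HSC. Lymphoid priming genes were called lower in 4 of 4 tested and dendritic cell markers in 2 of 3 tested. Between Adult and P0 HSC these last 3 lists were again called lower, in 5 of 10, 4 of 4 tested and 2 of 3 tested. The part of these lists in the Cd48 differences was not tested.

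Ly9 had another course in HSC. It had 3.86, 5 and 6.14 RPKM at E14, 8.7 to 15.3 RPKM at E16, 17.5 to 21.4 RPKM at P14 and 6.71 to 11.4 RPKM in Adult HSC. Adult HSC were lower than P14 HSC by -1.01 ± 0.18 (limma adjusted p = 0.000749), with no overlap, and Ly9 was the single member called, against 5.33% of all genes. Between E16 and E14 it was called higher at E16 (1.02 ± 0.2, limma adjusted p = 0.044), as 1 of 5 members where 0.0523% of all genes were called. That call was lost without any of the 7 libraries, with adjusted p from 0.0518 to 0.37, although E16 libraries were all above E14 libraries.

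Slamf1, Cd84 and Slamf6 were called by limma in none of the 8 comparisons of 2 HSC ages. Slamf1 averaged 9.24 ± 3.17 RPKM at E14 (n = 3) and 21.1 ± 2.87 RPKM at P14 (n = 4), its lowest and highest groups, and 14.1 ± 3.14 RPKM in Adult HSC (SD, n = 4). The Slamf1 log2 difference of Adult from E16 HSC was -0.04 (limma adjusted p = 0.93), and the sign turned without Adult replicate 1 (0.14) or without E16 replicate 2 (0.02) or 3 (0.05). Over all 7 ages together, limma called Slamf1 (adjusted p = 0.00478), Cd48 (4.06e-10), Ly9 (6.13e-07) and Cd84 (0.00497) as differing with age, 4 of 5 members against 39.1% of all genes. Slamf6 was not called (adjusted p = 0.124), and edgeR on the recovered reads called it as well. Its HSC levels were 0.654, 0.605 and 1.07 RPKM at E14 and 0 in 4 of 4 Adult libraries. On the recovered reads edgeR also called Slamf6 lower in Adult than in E16 HSC (adjusted p = 0.0315) and in Adult than in P0 HSC (adjusted p = 0.0096), where limma with the replicate block called it too (-1.12, adjusted p = 0.047). Slamf7 was below the filter in HSC.

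In HPC over age, Slamf1, Cd48 and Slamf6 were lower in Adult cells than at E16, 3 of 6 members, against 27% of all genes called by edgeR and 12% called lower. Slamf1 had 0.367, 0.867, 0.366 and 1.11 RPKM in Adult HPC, against 5.36, 0.932 and 4.97 RPKM at E16 (log2 fold change -2.58 ± 0.46, edgeR adjusted p = 0.00029), and the groups overlapped. With DESeq2, RLE size factors or no filter, Slamf7 was called lower between these ages as well (-2.51, DESeq2 adjusted p = 0.0305). Interferon response genes were called higher in Adult than in E16 HPC in 12 of 12 and macrophage markers in 6 of 8 (1 lower). HSC markers were called lower in 5 of 10 (1 higher) and B cell markers in 4 of 4 tested. Lymphoid priming genes were called lower in 3 of 8 and higher in 1. Their sum was 615 to 753 RPKM in Adult HPC and 217 to 287 RPKM in E16 HPC. T and NK cell markers were called higher in 1 of 2 tested, with sums of 490 to 609 RPKM, against 89.7 to 104 RPKM at E16. Mast cell and basophil markers were called higher in 2 of 6. Megakaryocyte markers were called lower in 2 of 6 tested and dendritic cell markers in 1 of 7. The part of these lists was not tested. Slamf1 was lowest at P14. It had 0.381, 0.104, 0.259, 0.502 and 0.184 RPKM at P14, against 3.36, 2.68, 2.98 and 2.43 RPKM at P7 (-3.21 ± 0.43, edgeR adjusted p = 0.000172), and it was the single member called there, against 9.84%. The Adult libraries overlapped those at P14, and Slamf1 was called higher in Adult than in P14 HPC (1.3, edgeR adjusted p = 0.0411) without P14 replicate 4 but not with it. Between P14 and P7 HPC, 1 of 10 HSC markers was called higher and 1 lower. Their sums were 222 to 412 RPKM at P14 and 283 to 380 RPKM at P7. Lymphoid priming genes were called higher in 2 of 8, with sums of 461 to 787 RPKM at P14 and 256 to 384 RPKM at P7. T and NK cell (1 of 2 tested), B cell (1 of 4 tested) and macrophage markers (1 of 8) were also called higher. Megakaryocyte (1 of 6 tested) and mast cell and basophil markers (1 of 6) were called lower, as was 1 of 12 interferon response genes. The part of these lists in the Slamf1 change was not tested. In P14 HPC of the genotype series, Slamf1 was 0.81 to 2.31 RPKM over all 17 libraries, each above the 5 P14 libraries of the age series, in a separate table and untested against them.

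Cd48 in Adult HPC (256 to 308 RPKM) lay below P14 HPC (347 to 461 RPKM) with no overlap (-0.71 ± 0.15, edgeR adjusted p = 0.00167), and below E16 HPC (-0.59 ± 0.17, adjusted p = 0.0124). Slamf6 had the largest late change of the called members: 0.578, 0.71, 0.463 and 1.21 RPKM in Adult HPC, against 5.39, 3.32, 4.21, 3.63 and 5.36 RPKM at P14 (-2.79 ± 0.29, edgeR adjusted p = 9.12e-07). These were 2 of 6 members called between Adult and P14, both lower, against 28.9% of all genes called and 14% called lower. B cell markers were called lower in 3 of 4 tested and interferon response genes higher in 9 of 12 between the same ages. Lymphoid priming genes were called lower in 3 of 8 and higher in 1, and mast cell and basophil markers lower in 2 of 6. Megakaryocyte markers were called higher in 2 of 6 tested and lower in 1. The part of all these lists was not tested. Against E16, Slamf6 in Adult HPC was also lower (-1.86 ± 0.31, edgeR adjusted p = 0.000132). Between P0 and E16 edgeR called none of 6 members (3 at an unadjusted p below 0.05, DESeq2 0; 3.27% of all genes), and between P7 and P0 none (0 at an unadjusted p below 0.05, DESeq2 0; 1.5%). Over all ages edgeR called Slamf1 (adjusted p = 5.66e-06), Cd48 (0.00408), Cd84 (0.0284) and Slamf6 (1.72e-06) but not Ly9 (0.117) or Slamf7 (0.119), 4 of 6 members against 42.9%.

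The Adult minus E16 change was then compared between the cell types, in 1 limma model over both. Of 6 members 2 were called, against 4.15% of all genes. For Slamf1 the change was more positive in HSC than in HPC, by a log2 value of 1.69 ± 0.42 (limma adjusted p = 0.0102). For Cd48 it was more negative in HSC than in HPC, by -1.53 ± 0.33 (limma adjusted p = 0.0023). The Slamf1 difference depended on the 3 E16 HPC libraries, of which replicate 2 had 0.932 RPKM: it lost its call without E16 HPC replicate 1 (1.32, adjusted p = 0.0783) or replicate 3 (1.41, adjusted p = 0.0511).

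**Figure D3:**
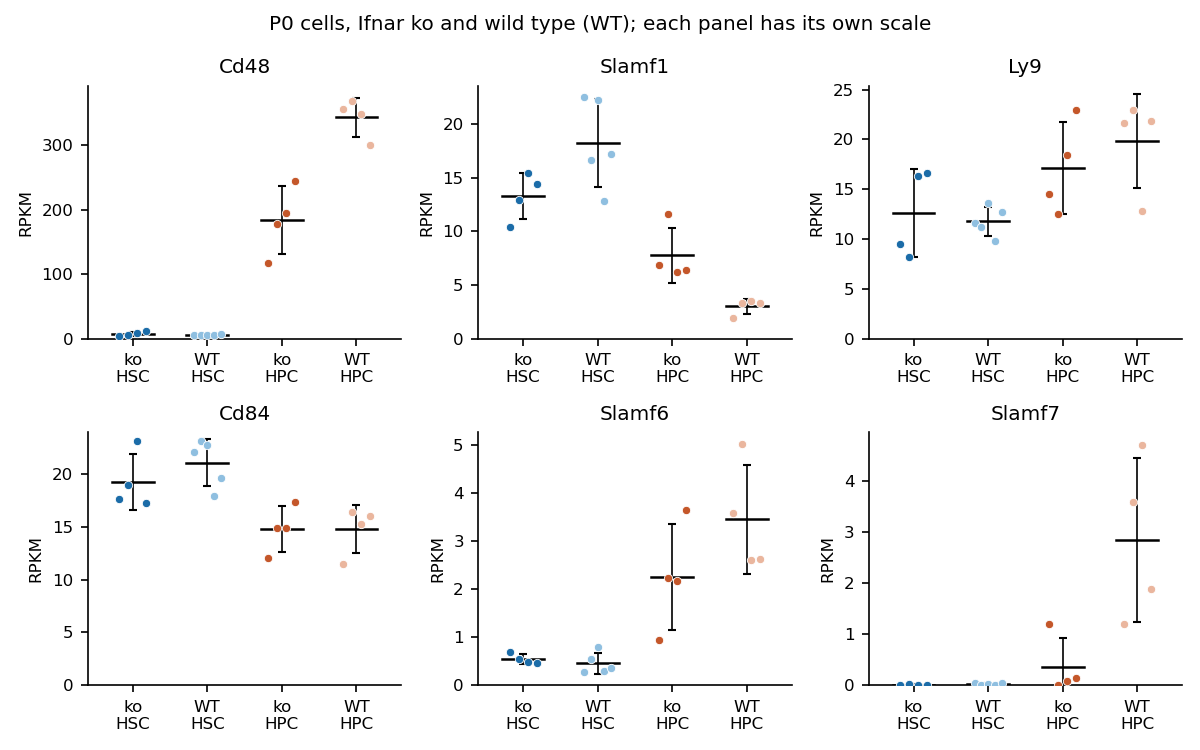
Level (RPKM) of the members in P0 cells of known Ifnar genotype, Ifnar ko left of wild type within HSC and within HPC; points are libraries, the black line is the mean and the bar the SD, and each panel has its own scale. In HPC, the Ifnar ko points lie above wild type for Slamf1 and below it for Cd48. For Slamf7 the highest Ifnar ko point and the lowest wild type point both round to 1.19 RPKM.

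Loss of Ifnar at P0 went with higher Slamf1 and lower Cd48 in HPC. The interferon response list checked the genotype: its summed level was 19.6 to 23.3 RPKM in Ifnar ko HPC, against 471 to 832 RPKM in wild type HPC, and 23.1 to 31.8 RPKM in Ifnar ko HSC, against 373 to 889 RPKM in wild type HSC. Reads of Ifnar1 itself were called in neither cell type, and reads outside a deleted part check nothing. Cd48 had 117, 178, 195 and 245 RPKM in Ifnar ko HPC, against 357, 368, 349 and 300 RPKM in wild type HPC, with no overlap (log2 fold change -0.97 ± 0.17, edgeR adjusted p = 0.00364). Slamf1 had 6.87, 11.6, 6.16 and 6.38 RPKM in Ifnar ko HPC, against 1.92, 3.31, 3.49 and 3.28 RPKM in wild type HPC, again with no overlap (1.31 ± 0.25, edgeR adjusted p = 0.00601). Within each library, the Cd48 to Slamf1 ratio was 15.3 to 38.4 in Ifnar ko HPC, against 91.6 to 186 in wild type HPC.

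Slamf7 was called lower in Ifnar ko HPC (1.19, 0, 0.0702 and 0.142 RPKM from 15, 0, 1 and 2 reads, against 1.19, 3.59, 4.7 and 1.88 RPKM from 17 to 69 reads in wild type HPC; -3.1 ± 0.83, edgeR adjusted p = 0.0321). Its call was lost without any of 6 of the 8 libraries, Ifnar ko replicates 2, 3 and 4 and wild type replicates 1, 2 and 3, with adjusted p from 0.0507 to 0.104. Of 6 members 3 were called in HPC, against 10.4% of all genes. Ly9 ranged from 12.5 to 23 RPKM in Ifnar ko HPC, against 12.8 to 23 RPKM in wild type HPC. Cd84 ranged from 12 to 17.4 RPKM in Ifnar ko HPC, against 11.5 to 16.4 RPKM in wild type HPC, and Slamf6 from 0.946 to 3.65 RPKM, against 2.6 to 5.03 RPKM. None of these 3 was called, and the groups overlapped in each.

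Several marker lists moved in the same Ifnar ko HPC libraries. HSC markers were called higher in 6 of 10, with sums of 365 to 549 RPKM, against 344 to 375 RPKM in wild type HPC. Megakaryocyte markers were called higher in 4 of 6 tested (210 to 383 RPKM, against 106 to 166 RPKM). Lymphoid priming genes were called lower in 7 of 8 (176 to 248 RPKM, against 311 to 397 RPKM), B cell markers in 4 of 4 tested (91.2 to 115 RPKM, against 116 to 159 RPKM), macrophage markers in 3 of 7 tested (17.4 to 45.4 RPKM, against 50.7 to 64.2 RPKM), dendritic cell markers in 4 of 5 tested (127 to 162 RPKM, against 321 to 410 RPKM) and T and NK cell markers in 1 of 2 tested (38.3 to 64.9 RPKM, against 75.7 to 118 RPKM). Of the defining markers, Ms4a1, Cd3e, Cd8a and Ncr1 were at 0 in both groups and Pax5 was at 0 in Ifnar ko. Flt3 is in both the lymphoid priming and the dendritic cell list, so these lists overlap. In each list, fewer cells and less RNA per cell cannot be told apart. The part of these lists in the Slamf1, Cd48 and Slamf7 differences was not tested.

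In P0 HSC edgeR called none of 5 members between Ifnar ko and wild type (1 at an unadjusted p below 0.05, DESeq2 0; 1.14% of all genes). Cd48 had 3.56, 5.65, 8.89 and 11.3 RPKM in Ifnar ko HSC, against 4.9 to 6.91 RPKM in wild type HSC (0.33, edgeR adjusted p = 0.747). Slamf1 averaged 13.3 ± 2.17 RPKM in Ifnar ko HSC (n = 4), against 18.2 ± 4.1 RPKM in wild type HSC (SD, n = 5; -0.45 ± 0.16, edgeR adjusted p = 0.391). The direction of both log2 values was opposite to that in HPC. The difference between the Ifnar ko effects, HPC minus HSC, was tested after the values were seen, in 1 edgeR model over both cell types. It was called for Slamf1 (1.74 ± 0.3, edgeR adjusted p = 0.00339) and Cd48 (-1.31 ± 0.33, edgeR adjusted p = 0.0479), 2 of 6 members against 1.7% of all genes. The Cd48 difference was lost without any of 12 of the 17 libraries, 3 wild type and 3 Ifnar ko HSC and 3 wild type and 3 Ifnar ko HPC, with adjusted p from 0.0501 to 0.092.

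Among P14 HPC, 1 library stood apart, replicate 2 of Ifnar +/-, Flt3 +/+. Without it, edgeR called 6223 genes in place of 766 for Ifnar -/- against Ifnar +/- in Flt3 +/+ cells, 5804 in place of 846 for ITD/+ against +/+ in Ifnar +/- cells, and 5592 in place of 2 for the difference between the ITD effects. It had the lowest Cd48 of its group, at 233 RPKM. Calls of members and the list values that use that group are given with and without it. In these comparisons, calls without it stand against the far larger counts, not the shares of all genes printed with all libraries. With all libraries, 17464 genes were tested. The 4 comparisons share groups and are not independent.

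**Figure D4:**
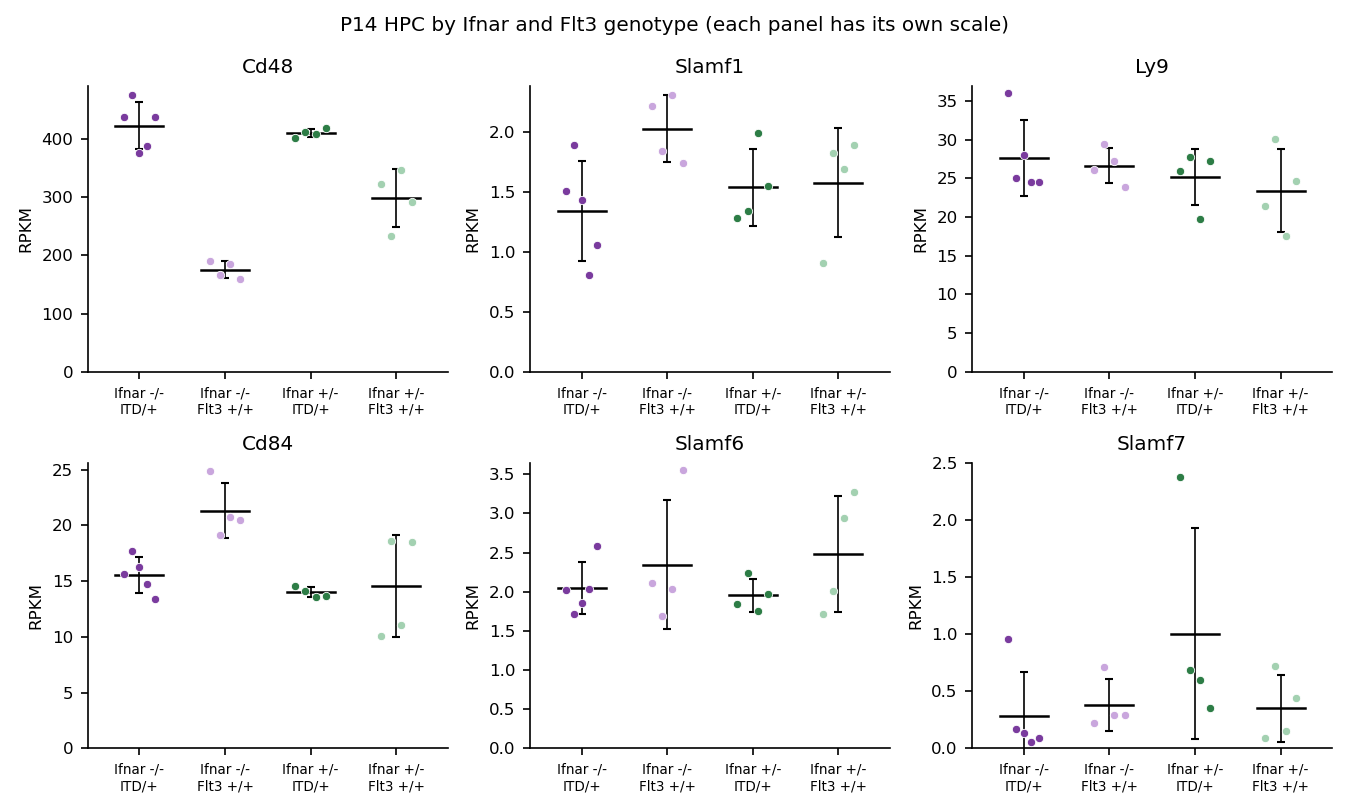
Level (RPKM) of the members in the 4 groups of P14 HPC, in the order Ifnar -/- with Flt3 ITD/+, Ifnar -/- with Flt3 +/+, Ifnar +/- with Flt3 ITD/+ and Ifnar +/- with Flt3 +/+; points are libraries, the black line is the mean and the bar the SD, and each panel has its own scale. The 4 Ifnar -/-, Flt3 +/+ libraries, at 160 to 191 RPKM of Cd48, lie below all others.

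At P14, Cd48 was lowest in HPC that lacked Ifnar and had no Flt3 ITD. It had 437, 475, 376, 387 and 437 RPKM in Ifnar -/-, Flt3 ITD/+ HPC, against 191, 166, 185 and 160 RPKM in Ifnar -/-, Flt3 +/+ HPC. This was a log2 fold change of 1.34 ± 0.15 (edgeR adjusted p = 6.14e-05), with Cd48 the single member called of 6, against 0.962% of all genes. In Ifnar +/- HPC, Cd48 had 402, 411, 408 and 418 RPKM with ITD/+, against 322, 233, 347 and 291 RPKM with +/+, and the groups did not overlap. That difference was not called (0.35 ± 0.16, edgeR adjusted p = 0.144), nor was any other member (1 of 6 at an unadjusted p below 0.05, DESeq2 0; 4.84% of all genes). Without the library that stood apart, it was 0.23 (edgeR adjusted p = 0.198).

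Set by Ifnar genotype, Cd48 was lower in Ifnar -/- than in Ifnar +/- HPC when Flt3 was +/+ (176 ± 14.8 RPKM, against 298 ± 49.2 RPKM; SD, n = 4 each). The log2 fold change was -0.98 ± 0.16 (edgeR adjusted p = 0.00462), with no overlap, and Cd48 was the single member called, against 4.39% of all genes. It was -1.11 (adjusted p = 9.78e-05) without the library that stood apart, and a fit of only these groups did not call it (-0.98, adjusted p = 0.149). In Flt3 ITD/+ cells Cd48 averaged 422 ± 40.5 RPKM in Ifnar -/- HPC (n = 5), against 409 ± 6.63 RPKM in Ifnar +/- HPC (SD, n = 4), with a log2 fold change of 0.01 ± 0.15 (edgeR adjusted p = 0.984). The sign of this value turned under several settings, with values down to -0.04. EdgeR called none of 6 members there (1 at an unadjusted p below 0.05, DESeq2 0; 4.03% of all genes). The ITD effect on Cd48 in Ifnar -/- minus that in Ifnar +/- cells was 0.99 ± 0.22 and was not called (edgeR adjusted p = 0.0872; 1 of 6 members at an unadjusted p below 0.05; 0.0115% of all genes). DESeq2 called it (1.03, adjusted p = 0.00422), as did edgeR without the library that stood apart (1.1, adjusted p = 0.000586). Both fits also called far more of all genes than the reported fit did.

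Marker lists at P14 are given beside these values. HSC markers summed to 335 to 384 RPKM in Ifnar -/-, Flt3 ITD/+ HPC, 352 to 505 RPKM in Ifnar -/-, Flt3 +/+ HPC, 194 to 229 RPKM in Ifnar +/-, Flt3 ITD/+ HPC and 177 to 414 RPKM in Ifnar +/-, Flt3 +/+ HPC. The 414 RPKM were those of the library that stood apart, and the other 3 of its group had 177 to 254 RPKM. For ITD/+ against +/+ in Ifnar -/- cells, where Cd48 was higher, edgeR called none of 10 HSC markers (3 at an unadjusted p below 0.05) and 2 of 8 lymphoid priming genes lower, and without the library that stood apart 2 and 4 were called lower. For Ifnar -/- against Ifnar +/- in Flt3 +/+ cells, where Cd48 was lower, it called 2 of 10 HSC markers higher, 10 of 12 interferon response genes lower, 2 of 4 tested B cell markers lower and 2 of 8 lymphoid priming genes lower. Without the library that stood apart, edgeR called 7 of 10 HSC markers higher, 10 of 12 interferon response genes lower and 1 higher, 3 of 4 tested B cell markers lower, and 3 of 8 lymphoid priming genes higher and 3 lower. That fit also called far more of all genes, as given above. For Ifnar -/- against Ifnar +/- in Flt3 ITD/+ cells, where Cd48 was not called, the same lists moved as well. There edgeR called 3 of 10 HSC markers higher and 11 of 12 interferon response genes lower. It also called 2 of 4 tested B cell markers and 2 of 8 lymphoid priming genes lower. The part of these lists in the Cd48 values was not tested. Slamf1, Ly9, Cd84, Slamf6 and Slamf7 were called in none of the P14 comparisons by edgeR. Without the library that stood apart Cd84 was called in 1, where far more of all genes were called as well. Cd84 had 24.9, 19.1, 20.8 and 20.5 RPKM in Ifnar -/-, Flt3 +/+ HPC, against 10.1 to 18.6 RPKM in Ifnar +/-, Flt3 +/+ HPC, without overlap (0.37, edgeR adjusted p = 0.122), and called without that library (0.46, adjusted p = 0.032). Over the 17 libraries Ly9 ranged from 17.5 to 36 RPKM, Cd84 from 10.1 to 24.9 RPKM, Slamf6 from 1.69 to 3.55 RPKM and Slamf7 from 0.0582 to 2.38 RPKM.

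The change of Slamf1 seen at P0 in Ifnar ko HPC was not called at P14, with or without the library that stood apart. Slamf1 had 2.22, 1.84, 2.31 and 1.74 RPKM in Ifnar -/-, Flt3 +/+ HPC, against 0.907, 1.83, 1.69 and 1.89 RPKM in Ifnar +/-, Flt3 +/+ HPC. The controls differ between the ages, wild type at P0 and Ifnar +/- at P14, and the difference between the ages was not tested.

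**Figure D5:**
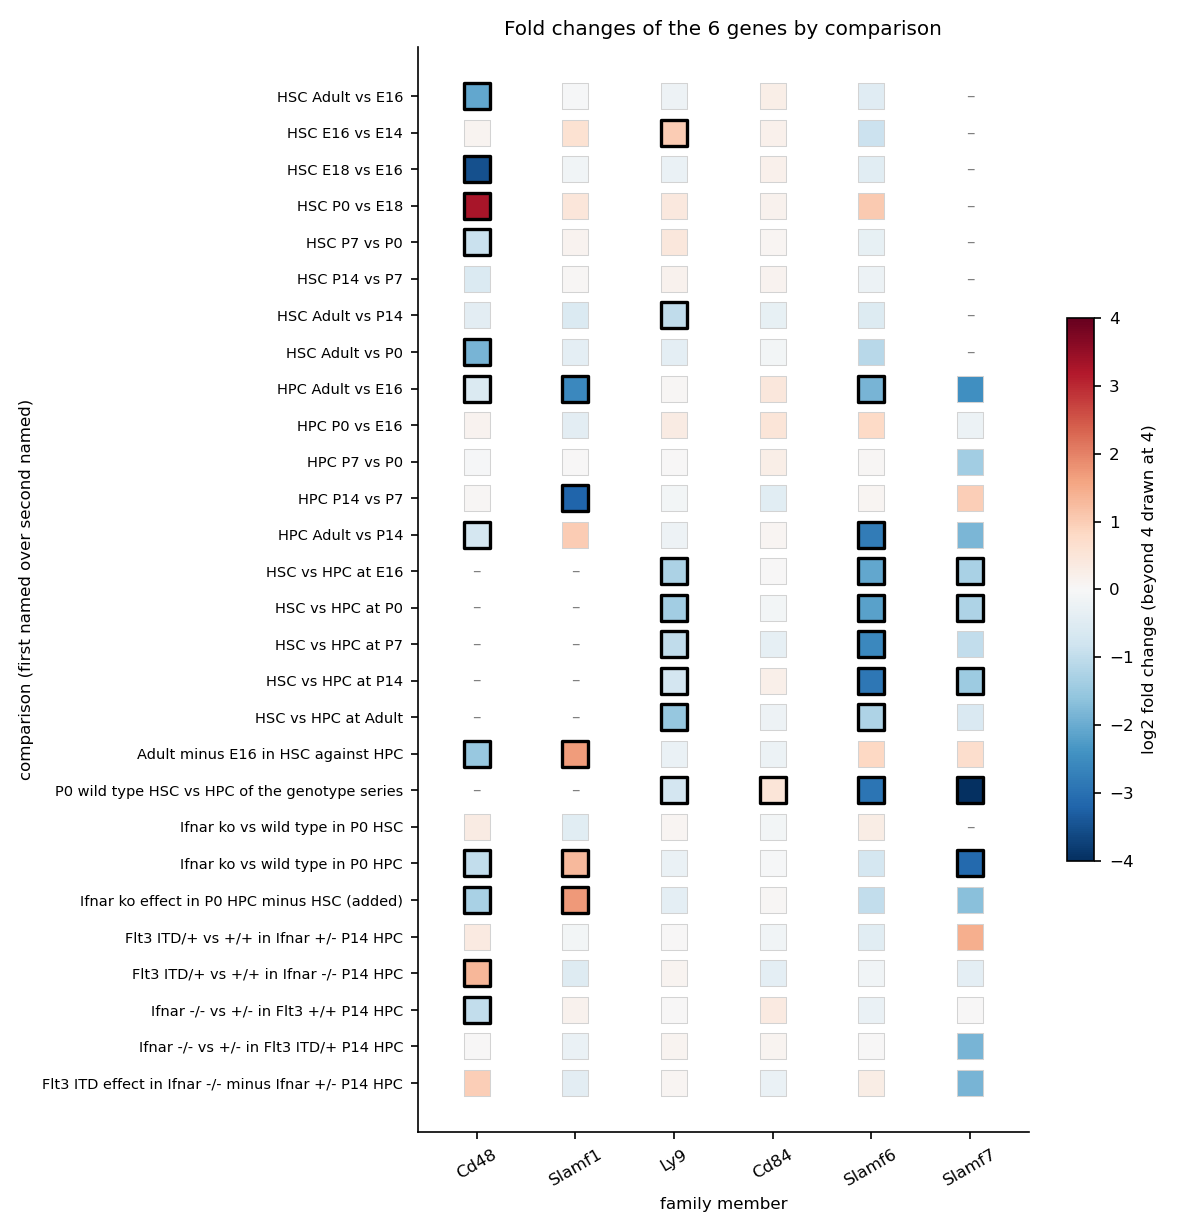
Log2 fold change of each member (columns) in each comparison (rows), with colour from blue (lower in the group named first) to red (higher) and the scale clipped at 4; a black outline marks a call and a dash a member that was not tested. Cd84 is outlined in 1 row, wild type P0 HSC against HPC of the genotype series, and Cd48 has outlined squares in age rows of both cell types and in genotype rows of HPC.

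A list of 14 further SLAM pathway genes held other receptors, the adapters and the enzymes they bind, and 13 of them had values. Cd244a, the receptor that binds CD48, was lower in HSC at all 5 ages, with log2 differences of -2.73, -2.76, -4.36, -4.01 and -3.94 from E16 to Adult, each called by limma. Its median was 0 RPKM in E16 HSC, against 3.03 RPKM in E16 HPC, and 1.1 RPKM in Adult HSC, against 24.6 RPKM in Adult HPC. With age it was higher in Adult than in E16 HPC (2.8, edgeR adjusted p = 6.87e-09) and in Adult than in E16 HSC (1.43, limma adjusted p = 0.00487). Ligand and receptor RNA thus went different ways with age, Cd48 being lower and Cd244a higher in Adult than in E16 cells of both types. In Ifnar ko P0 HPC both were lower, Cd244a with 1.53 to 3.29 RPKM, against 6.96 to 11.9 RPKM in wild type HPC (-1.9, edgeR adjusted p = 0.00029). At P14 Cd244a was lower in Ifnar -/- than in Ifnar +/- HPC when Flt3 was ITD/+ (-1.1, edgeR adjusted p = 0.0252), the single call among 11 pathway genes tested there. When Flt3 was +/+ it was -0.94 ± 0.28 and not called (edgeR adjusted p = 0.0572). Without the library that stood apart it was called (-0.98, edgeR adjusted p = 0.0179), as were far more of all genes. The difference between the 2 values, -0.16, was not called either (edgeR adjusted p = 0.809).

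Slamf8, a receptor of macrophages that lacks the switch motif, was higher in Adult than in E16 HSC (2.79, limma adjusted p = 2.84e-07). It had 2.2 to 3.4 RPKM in Adult HSC and was at 0 in all E16 HSC libraries, so the fitted value depends on the pseudocount. Slamf8 and Cd244a were the 2 of 9 pathway genes called between Adult and E16 HSC, both higher, and the median over the 9 was 0.19, beside 0.02 over all genes. Macrophage markers moved with it there, as given above. The same 2 genes were the calls among 11 pathway genes between Adult and E16 HPC, with a median of 0.11, beside 0.05 over all genes. In Ifnar ko P0 HPC, 1 of 10 pathway genes was called higher, the phosphatase Ptpn11 (0.91, edgeR adjusted p = 0.0137), and 2 lower, Cd244a and the adapter Sh2d1b2 (-2.28, adjusted p = 0.0468). In Ifnar ko P0 HSC, edgeR called none of 9 (0 at an unadjusted p below 0.05).

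Across the 12 group means of the age series, the members other than Cd84 split by cell type. Pearson's r with Cd48, on log2(RPKM + 0.5), was 0.9 for Slamf6, 0.9 for Slamf7, 0.78 for Ly9, 0.23 for Cd84 and -0.83 for Slamf1. The points are 7 HSC and 5 HPC groups, so these values carry mainly the contrast of cell types and are a description. Among genes that passed the filter, had a highest group mean of at least 3 on that scale and a name other than a clone or Gm number, those most like Slamf1 were Tgfbr3 (0.972), a coreceptor of TGF-beta, and Tek (0.962), the angiopoietin receptor, followed by Mamdc2 (0.961). Those most like Cd48 were Tespa1 (0.987), Cd33 (0.977) and Evi2a (0.973). For Ly9 they were Pmm2 (0.957), Fam234b (0.932) and Hnf4a (0.932), and for Cd84 Myl6b (0.901), Fnbp1 (0.897) and Ift81 (0.89). For Slamf6 they were Cox16 (0.98), Arpc1a (0.973) and Gmfg (0.972), and for Slamf7 Tifab (0.974), Ccr9 (0.968) and Ppp1r8 (0.965).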

How the data were processed

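RNA was prepared with a Qiagen micro plus kit and a Clontech kit spelled SMRTr, per the labels' protocols. STAR 3.0.4, Subread and featureCounts 1.4.5 are named in the submitters' processing notes. Build, annotation and strand use are not given in the sources used here. The authors deposited raw read counts per gene for age-series HPC and all genotype libraries. For HSC of the age series the deposited values are RPKM, found from the values. Of the value columns, 1 matched no sample and was not used, and 2 rows that are not mouse genes (at most 0.000144% of a library) were left out. The tests had been planned for counts.

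RPKM became whole reads (tolerance 1e-05) for 25622 of 25622 detected genes, with 100% of nonzero values whole, at the GENCODE M21 exon length for 16624 and at a length found from the values for 8998. Genes of the second kind include Slamf1 (3402 bases), Slamf6 (2443) and Slamf7 (1082). These lengths turned counts into RPKM in all groups. Symbols matched 40254 identifiers.

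Comparisons holding age-series HSC used limma 3.58.1 (robust trend, R 4.3.3) on log2(RPKM + 0.5) after TMM scaling. Genes had to exceed 1 RPKM in at least the number of libraries of the smallest group, and these fold changes understate changes of low genes. The others used edgeR 4.0.16 quasi-likelihood tests on counts with TMM and the default filter. Each cell type's age series, each P0 cell type and the P14 libraries were fitted together without covariates, and comparisons across cell types in 1 model over both. Tests are two-sided with Benjamini-Hochberg adjustment over all genes. Alternatives were no TMM scaling, other pseudocounts and filters, DESeq2 1.42.0, edgeR on the recovered reads, a replicate block, only the groups compared and leaving out each library. The scripts were tested on simulated data.

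All 6 members are named throughout. Also named were up to 3 called pathway genes of smallest adjusted p per comparison, the 3 genes most like each member among those with a group mean of at least 3 on the log2 scale, and Ifnar1. The members and lists were chosen with earlier results of these data known. Promoter windows are RefSeq's.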

Additional observations from a re-analysis of the deposited data

Results flagged for a closer look

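In 100 groups of 4 or 5 libraries and members, the highest or lowest library lay far from the others 14 times. Chance gives about 1 in 20 for normally distributed values. The lowest Cd48 of Adult HSC was 7.4 RPKM (others 8.35 to 8.44 RPKM), and the highest Cd84 of E16 HSC was 17.4 RPKM (others 14.7 to 15.2 RPKM). The lowest Ly9 of wild type P0 HPC was 12.8 RPKM (others 21.6 to 23 RPKM). Slamf1 was 11.6 RPKM in 1 Ifnar ko P0 HPC library (others 6.16 to 6.87 RPKM) and 1.92 RPKM in 1 wild type P0 HPC library (others 3.28 to 3.49 RPKM).

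The other 9 were single high libraries of Slamf7. In HSC they had 0.752 RPKM from 13 reads at E16, 0.297 RPKM from 7 reads at P0, 0.0745 RPKM from 1 read at P14, 0.0661 RPKM from 1 read in Adult cells and 0.02 RPKM from 1 read in P0 Ifnar ko, where all other libraries of the group were at 0. In these 5 groups any single library with a read stands apart by construction, so the rate of 1 in 20 does not apply. In HPC they had 1.19 RPKM in P0 Ifnar ko (others up to 0.142 RPKM), 0.962 RPKM in P14 Ifnar -/-, Flt3 ITD/+ (others up to 0.171 RPKM), 0.716 RPKM in P14 Ifnar -/-, Flt3 +/+ (others up to 0.289 RPKM) and 2.38 RPKM in P14 Ifnar +/-, Flt3 ITD/+ (others up to 0.684 RPKM).

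An effect differed between HSC and HPC for 2 members in each of 2 contrasts. The Adult minus E16 log2 change in HSC against HPC differed by 1.69 for Slamf1 and -1.53 for Cd48 (limma). The Ifnar ko effect at P0 in HPC minus HSC differed by 1.74 for Slamf1 and -1.31 for Cd48 (edgeR).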

How the results depend on the processing

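Of 39 called fold changes of members, 31 were called under every setting in which the member was tested, and 0 had the other sign under any. Settings in which a member fell below the filter are not counted. This was so for Slamf6 in Adult HSC against HPC with only these groups fitted. Of 95 others that were not called and are not given above, 29 had the other sign under some setting and 5 were called under some. Numbers of members called are given where they moved by over 1.5 times. With edgeR on the recovered reads the number of members called became 2 for Adult against E16 HSC (1 with limma), 2 for Adult against P0 HSC (1), 0 for P7 against P0 HSC (1) and 0 for E16 against E14 HSC (1). P7 against P0 also had 0 with no filter or a pseudocount of 0.1, and E16 against E14 had 0 with no filter or only the groups compared. With only the groups compared, Adult HSC against HPC had 1 (reported 2) and Ifnar -/- against +/- in Flt3 +/+ HPC had 0 (reported 1). DESeq2 called 1 member in the difference between the ITD effects (reported 0). Replicate numbers do not pair the libraries: the correlations of same-numbered deviations ran from -0.21 to 0.23, and no comparison had all above 0.1. A replicate block gave 0 for E16 against E14 HSC, 2 for Adult against P0 HSC, -0.01 for Cd48 between Ifnar genotypes in ITD/+ HPC (reported 0.01), and ended the call of Slamf7 in Ifnar ko P0 HPC (adjusted p = 0.0701).

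Leaving out each library gave 0 to 0 members for E16 against E14 HSC, 0 to 1 for P7 against P0 HSC, 1 to 2 for Adult against P0 HSC, 1 to 2 for the Adult minus E16 difference between cell types, 1 to 2 for the Ifnar effect in HPC minus HSC, 1 to 2 for Ifnar in Flt3 +/+ HPC, 0 to 1 for Ifnar in ITD/+ HPC and 0 to 1 for the difference between ITD effects. Slamf1 in Adult against E16 HSC ran from -0.17 to 0.14, and Cd48 for Ifnar in ITD/+ HPC from -0.04 to 0.06. The causes were not tested.

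Counts over all genes differed by over 1.5 times from those reported (in brackets) in these cases. With no filter, limma called 14 genes for E16 against E14 HSC (reported 7), 471 for E18 against E16 (726) and 143 for P14 against P7 (229). E16 against E14 also had 13 without TMM, 4 with the replicate block, 3 with edgeR and 0 with only the groups compared. With only the groups compared there were 140 for P0 against E18 HSC (635), 414 for P7 against P0 HSC (794), 1836 for Adult against P0 HSC (2807), 205 for P0 against E16 HPC (483), 645 for P7 against P0 HPC (222) and 2665 for Adult against P14 HPC (4262). DESeq2 called 877 for P0 against E16 HPC and 416 for P7 against P0 HPC, 336 for Ifnar ko in P0 HSC (185), 2036 in P0 HPC (1347) and 759 for their difference (293). At P14, DESeq2, only the groups compared and the replicate block gave 2656, 165 and 1524 for ITD in Ifnar +/- (846), 3097, 42 and 1293 for Ifnar in Flt3 +/+ (766) and 1376, 1368 and 452 for Ifnar in ITD/+ (704). For ITD in Ifnar -/- (168) the first 2 gave 428 and 295. For the difference between ITD effects (2), DESeq2 gave 2408, no filter 12 and the block 0.

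Slamf7 in all groups, Slamf6 in HSC and Slamf1 in late HPC rest on few reads, which limits the differences detectable there.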
